A study of Mus musculus with 18 samples.

Results

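The 5′ ends of the 4 mouse *Hox* clusters hold 6 genes of paralog groups 12 and 13: *Hoxa13*, *Hoxb13*, *Hoxc13*, *Hoxd13*, *Hoxc12* and *Hoxd12*. They were taken by symbol from the Ensembl rows of a table of 38924 genes, and all 6 were present, 4 of them with enough counts to be tested. The libraries came from fibroblasts of the heart, kidney and tail of 10-week-old male ROSA mT/mG mice on a C57BL/6 background, which carry a membrane-targeted TdTomato reporter in every cell. The cells had been cultured for 10 days, and 400000 to 500000 of them were seeded on gelatin foam, which was implanted beneath the renal capsule of C57BL6/J mice aged 10 to 11 weeks, a syngeneic host. After 3 days live CD45−;TdTomato+ cells were sorted, which are called HFs when they came from heart, KFs from kidney and TFs from tail. Sister cells that were replated as cultured controls are called HFc, KFc and TFc. Their harvest is taken here as 3 days after replating, which the study's methods do not state. There were 3 libraries in each of these 6 groups, and the labels do not tie the replicates to separate donors, so that p-values measure the spread between these libraries only. All groups carried the reporter, and the controls were replated but not implanted. The sort 3 days after transfer is described for the implanted cells only.

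Library totals ranged from 17927838 to 32245168 counts. Levels are given as CPM, the count of a gene relative to all counts of its library, with library sizes scaled by edgeR's TMM method, and levels of different genes are set against each other only as CPM per kb of exon. A gene was treated as not detected where every library of a group had 3 counts or fewer, which corresponded to between 0.0890 and 0.180 CPM depending on the library. This floor covers counting error only. The library labelled KFs replicate 3 stood apart: 4 Y-linked genes (*Uty*, *Kdm5d*, *Ddx3y*, *Eif2s3y*) summed to 0.722 CPM and its *Xist* to 1492 CPM, against 175 to 230 CPM and at most 0.404 CPM in the 17 other libraries, although the donors are given as male. The fits were therefore also run without it, and the number of members called was the same in each of the 9 comparisons between groups and the 3 between responses. The label of fibroblast was checked on 8 markers, all of which passed the filter on low counts, and their summed level was 12278 to 16006 CPM in the cultured libraries and 17843 to 123003 CPM in the transplanted ones, lowest in KFs replicate 3. Leukocyte markers (*Ptprc*, *Lyz2*, *Csf1r*, *Adgre1*, *Cd68*) summed to 10.4 to 374 CPM over the 18 libraries.

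*Hox* genes encode homeodomain transcription factors that give cells their position along the body axis, and within a cluster the genes nearer the 5′ end are switched on later and farther toward the tail. Groups 12 and 13 are the last of this series. The group 13 factors are known for patterning the digits, the genital tubercle and hindgut, and for ending axis elongation at the tail, and *Hoxc13* is in addition required for hair and nail formation. The homeobox, which codes for the DNA-binding homeodomain, lies in the second of 2 exons in each of the 6 genes. It is shown for the 4 genes that were tested because it is the stretch in which the paralogs are most alike, and reads from it could be shared among them. The sequences are those of the GENCODE M21 transcripts on GRCm38, 5′ to 3′ on the coding strand, and capitals mark bases that differ from *Hoxb13*:
Hoxb13: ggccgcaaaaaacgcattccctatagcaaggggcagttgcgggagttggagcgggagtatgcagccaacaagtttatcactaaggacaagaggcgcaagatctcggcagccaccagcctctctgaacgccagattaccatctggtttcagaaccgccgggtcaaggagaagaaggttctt
Hoxa13: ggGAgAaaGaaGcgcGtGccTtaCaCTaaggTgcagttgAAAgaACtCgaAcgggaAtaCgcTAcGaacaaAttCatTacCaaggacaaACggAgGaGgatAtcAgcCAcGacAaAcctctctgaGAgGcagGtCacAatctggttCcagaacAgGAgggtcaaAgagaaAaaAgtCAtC
Hoxc13: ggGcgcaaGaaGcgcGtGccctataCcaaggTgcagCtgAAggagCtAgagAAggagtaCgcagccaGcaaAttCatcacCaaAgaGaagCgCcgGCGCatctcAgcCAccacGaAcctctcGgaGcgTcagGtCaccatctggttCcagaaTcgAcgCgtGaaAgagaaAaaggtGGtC
Hoxc12: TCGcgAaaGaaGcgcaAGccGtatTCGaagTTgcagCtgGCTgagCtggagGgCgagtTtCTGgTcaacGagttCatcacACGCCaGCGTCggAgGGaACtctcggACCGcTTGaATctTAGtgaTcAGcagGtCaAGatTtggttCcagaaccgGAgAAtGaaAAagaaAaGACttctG

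These homeoboxes lie at chr11:96196020-96196199 (plus strand, *Hoxb13*), chr6:52258928-52259107 (minus strand, *Hoxa13*), chr15:102927210-102927389 (plus strand, *Hoxc13*) and chr15:102938308-102938487 (plus strand, *Hoxc12*). Over the 180 bases *Hoxc13* differed from *Hoxb13* at 47 positions, *Hoxa13* at 56 and *Hoxc12* at 76. At the protein level *Hoxa13* and *Hoxc13* were the closest pair of the 6 genes, with 55 of 60 homeodomain residues identical, whereas *Hoxc13* and *Hoxc12*, neighbours in 1 cluster, shared 33. The longest run of identical bases between any pair of the 6 homeoboxes was 16. No window of 75 bases, the length of the reads, from the longest coding transcript of any of the 6 genes occurred in a transcript of another gene. The counts of the paralogs could therefore be told apart. By position, none of the other *Hox* genes analysed here overlapped any of the 6, and overlap with other annotated genes was not assessed.

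In cultured fibroblasts *Hoxa13*, *Hoxb13*, *Hoxc12* and *Hoxc13* were all far higher in tail than in heart or kidney, *Hoxd13* and *Hoxd12* were not detected in the tail, and *Hoxc13* was the one member also present in heart and kidney cultures. *Hoxb13* (ENSMUSG00000049604, chr11:96194316-96197447), a gene of the tail bud and caudal spinal cord in the embryo and of the adult prostate, stood at 68.1, 65.0 and 65.0 CPM in the TFc libraries. It had at most 2 counts in any library of heart or kidney. *Hoxa13* (ENSMUSG00000038203, chr6:52257694-52260880), a gene of the distal limb and of the urogenital and hindgut outlets, was at 10.3, 12.01 and 12.6 CPM in TFc. Outside the tail it had 1 count in 1 HFc library and 1 count in 1 KFs library. In both genes the 6 tail libraries did not overlap the 12 others. How many of all genes tested separate them in this way was not determined, so this is a description only.

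*Hoxc12* (ENSMUSG00000050328, chr15:102936757-102938609), which lies 7942 bases from *Hoxc13* and 15817 bases from *Hoxc11*, was at 23.3, 20.8 and 19.5 CPM in TFc. It was low but detected in cultured kidney fibroblasts, with 0.410, 0.628 and 0.299 CPM (11, 18 and 9 counts), and had 0 counts in all 6 heart libraries. *Hoxc13* (ENSMUSG00000001655, chr15:102921103-102928814), the outermost gene of its cluster, was at 42.6, 36.8 and 41.7 CPM in TFc, at 10.7, 12.3 and 13.03 CPM in KFc and at 2.99, 2.50 and 2.06 CPM in HFc. In culture its 3 organ groups did not overlap, in the order tail, kidney, heart. The plot of the 6 genes by library shows this stepped pattern for *Hoxc13* beside *Hoxa13* and *Hoxb13*, which were at the floor outside the tail, and *Hoxc12*, which was low in KFc.

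**Figure D1:**
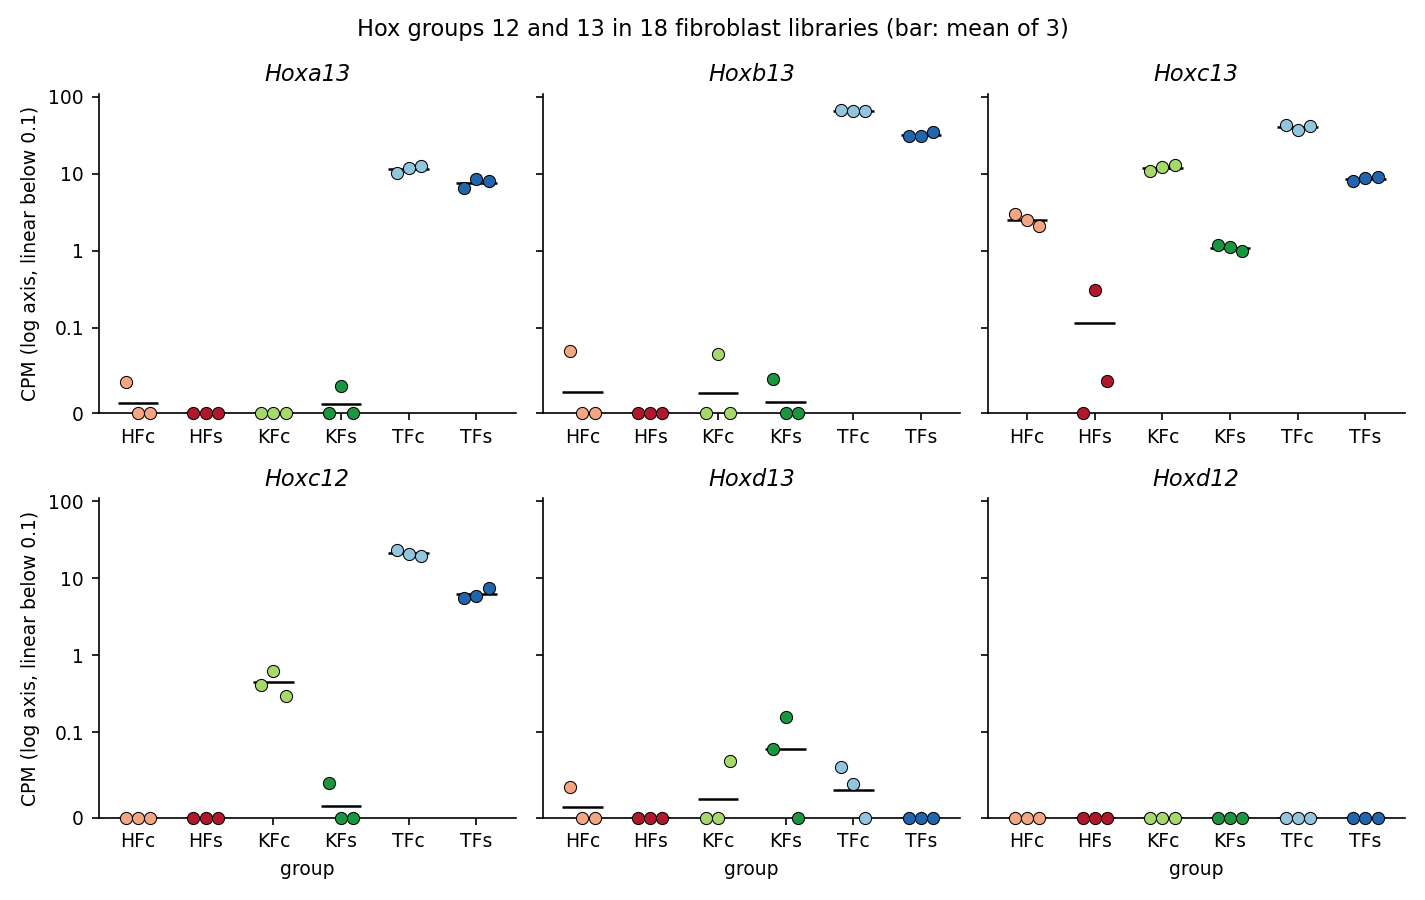
Level of each of the 6 genes in CPM (vertical axis, logarithmic above 0.1 and linear below) in every library, by group (horizontal axis); points are libraries and bars the means of 3. *Hoxa13* and *Hoxb13* are at 2 counts or fewer outside TFc and TFs, *Hoxc13* is present in all cultured groups and lower in each transplanted group, and *Hoxd13* and *Hoxd12* stay at or near 0.

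The organ comparisons were tested in edgeR by quasi-likelihood, and p-values were adjusted by Benjamini-Hochberg over 16577 genes. All 4 tested members were higher in TFc than in HFc, where 21.0% of all genes tested were higher, and all 4 were higher in TFc than in KFc, where 18.5% were. For *Hoxc13* the difference was 3.99 ± 0.28 (log2 fold change ± SE, adjusted p = 1.99e-08) against HFc and 1.75 ± 0.25 (adjusted p = 5.86e-05) against KFc. *Hoxc12* was higher in TFc than in KFc by 5.56 ± 0.34 on the log2 scale (adjusted p = 2.90e-07). Where the other organ was at or under the floor only a lower bound can be given. *Hoxb13* was at least 553-fold higher in TFc than in HFc and at least 626-fold higher than in KFc, *Hoxa13* at least 97.5-fold and 110-fold, and *Hoxc12* at least 178-fold higher than in HFc. These bounds put 3 counts into each library of the lower organ.

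Between the other organs in culture, *Hoxc13* and *Hoxc12* were higher in KFc than in HFc, where 14.0% of genes were higher. The log2 fold change of *Hoxc13* was 2.24 ± 0.26 (edgeR, adjusted p = 1.13e-05), and *Hoxc12* was at least 3.73-fold higher (edgeR, adjusted p = 9.39e-05). Per kb of exon, the mean level in TFc was highest for *Hoxb13* (29.9 ± 0.813 CPM per kb, SD, n = 3), followed by *Hoxc12* (20.6 ± 1.88), *Hoxc13* (16.4 ± 1.25) and *Hoxa13* (4.71 ± 0.474), and the ranges of neighbours in this order did not overlap. *Hoxb13* had the highest level per kb of all 38 *Hox* genes in every TFc library. In KFc the level of *Hoxc13* per kb (4.87 ± 0.481) exceeded that of *Hoxc11* (0.616 ± 0.0808) and *Hoxc12* (0.432 ± 0.162), the next genes toward the 3′ end, although *Hoxc10* beyond them was at 27.0 ± 0.0841. In HFc *Hoxc13* stood alone at 1.02 ± 0.188 CPM per kb, since *Hoxc11* and *Hoxc12* had 0 counts and *Hoxc10* had 0, 0 and 2 counts. The plot along the clusters shows this dip between *Hoxc10* and *Hoxc13* in KFc.

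**Figure D2:**
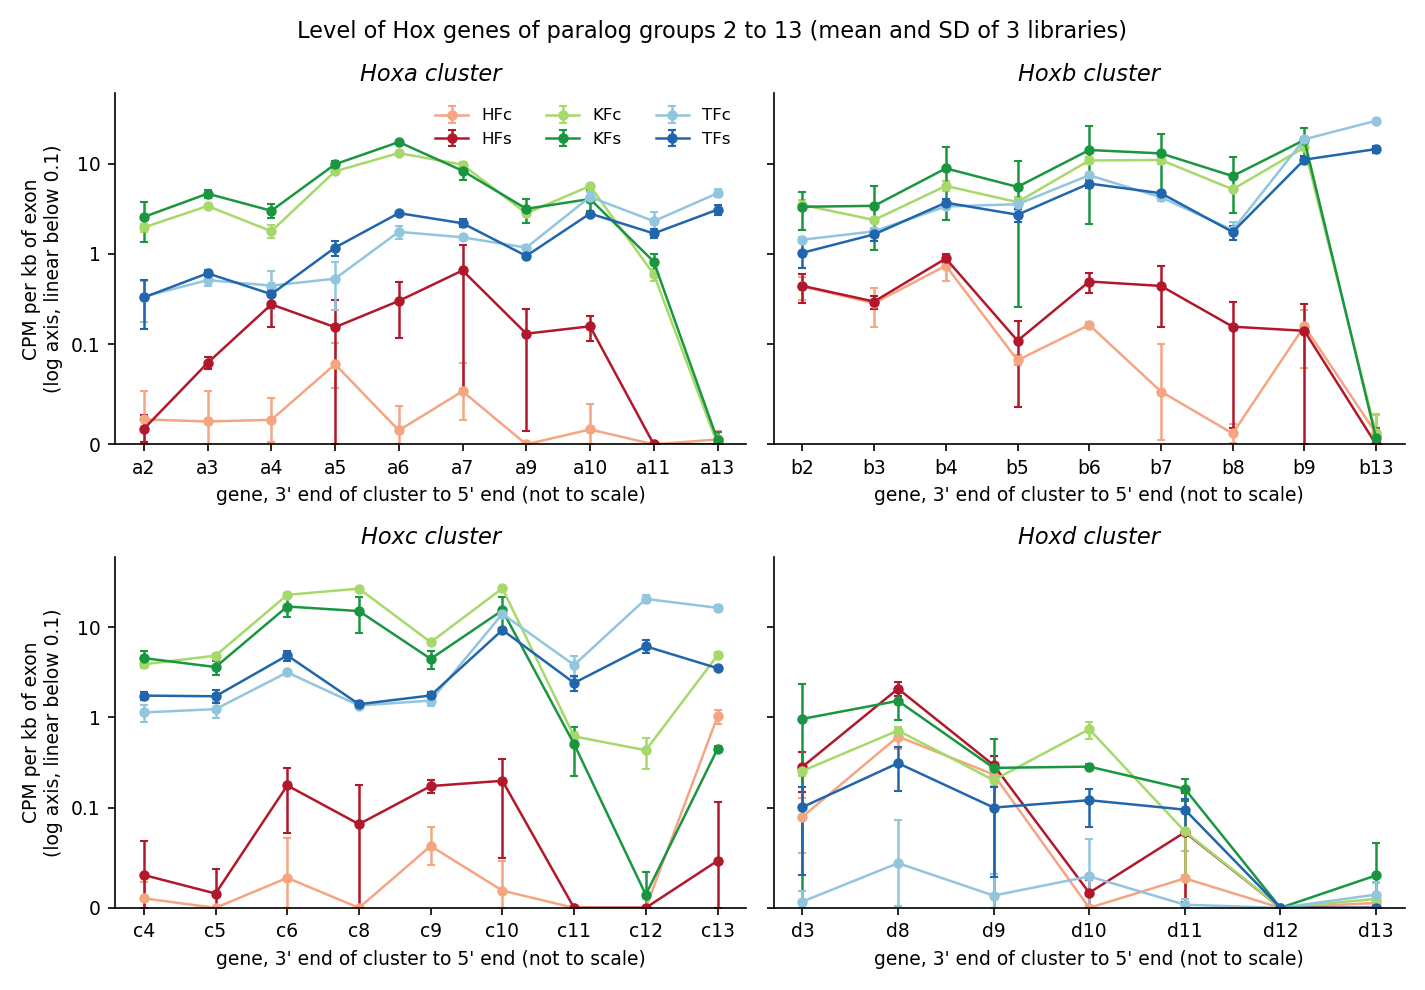
Mean level of the *Hox* genes of paralog groups 2 to 13 in CPM per kb of exon (vertical axis, logarithmic above 0.1 and linear below) in gene order along each cluster (horizontal axis, not to scale), one line per group, with the SD of 3 libraries. In TFc the last genes of the a, b and c clusters are at 4.71, 29.9 and 16.4 CPM per kb while the d cluster is at or near 0; in KFc and HFc *Hoxc13* lies above *Hoxc12* and *Hoxc11*.

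The d cluster did not share the tail pattern. *Hoxd13* (ENSMUSG00000001819, chr2:74668310-74671599), known with *Hoxd12* for digit patterning, had 2, 1 and 0 counts in TFc, 0 in every TFs and HFs library, 1, 0 and 0 in HFc, 0, 0 and 2 in KFc, and 2, 5 and 0 in KFs. *Hoxd12* (ENSMUSG00000001823, chr2:74675013-74677705) had 0 counts in all 18 libraries. The genes next to them in the tail cultures were also at the floor, with 0, 1 and 0 counts of *Hoxd11* and 0, 1 and 3 of *Hoxd10* in TFc. In KFc these neighbours had 5, 7 and 16 counts and 31, 48 and 36 counts. At this depth, posterior *Hoxd* RNA was thus not detectable in cultured tail fibroblasts that had 287 or more counts of each other group 13 gene.

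At 3 days after transplantation *Hoxc13* was lower than in culture in all 3 organs, *Hoxc12* in tail and kidney and *Hoxb13* in tail. *Hoxc13* fell from 42.6, 36.8 and 41.7 CPM in TFc to 8.13, 8.72 and 9.08 CPM in TFs. It fell from 10.7, 12.3 and 13.03 CPM in KFc to 1.17, 1.12 and 1.00 CPM in KFs. It fell from 2.99, 2.50 and 2.06 CPM in HFc to 0, 0.309 and 0.0380 CPM in HFs, which were 0, 7 and 1 counts. No transplanted library reached the lowest cultured library of its organ. Ordered by mean level over the 6 groups, TFc was followed by KFc, TFs, HFc, KFs and HFs, and neighbours in this order did not overlap (TFs was not tested against KFc, nor HFc against KFs).

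The fits gave log2 fold changes for *Hoxc13* of -2.22 ± 0.25 in TFs against TFc (adjusted p = 7.82e-06), -3.44 ± 0.29 in KFs against KFc (adjusted p = 2.18e-07) and -4.33 ± 0.42 in HFs against HFc (adjusted p = 6.31e-07). In linear terms these were 4.67-, 10.9- and 20.1-fold lower levels. The size of the last rests on HFs replicate 2, which held 7 of the 8 counts. Without it HFs was under the floor, and *Hoxc13* was at least 17.1-fold lower than in HFc. Without KFs replicate 3 the kidney value was -3.43 (edgeR, adjusted p = 7.02e-08).

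In the tail, 3 of the 4 tested members passed the test and the log2 fold change limit of 1, all of them lower in TFs, where 5.53% of all genes were lower and 11.0% higher by the same rule. *Hoxc12* fell from 23.3, 20.8 and 19.5 CPM to 5.57, 5.91 and 7.51 CPM, a log2 fold change of -1.74 ± 0.28 (edgeR, adjusted p = 4.71e-04). *Hoxb13* fell from 68.1, 65.0 and 65.0 CPM to 30.4, 30.5 and 35.2 CPM, a log2 fold change of -1.04 ± 0.22 (edgeR, adjusted p = 0.00218), close to the limit. *Hoxa13* was at 6.48, 8.41 and 8.06 CPM in TFs against 10.3, 12.01 and 12.6 CPM in TFc, which do not overlap, but its log2 fold change of -0.60 ± 0.30 did not pass (edgeR, adjusted p = 0.136, and 0.0102 to 0.318 over its alternatives, in none of which the change reached the limit). All 4 genes lay below their cultured range in all 3 TFs libraries, by different amounts. The share of all genes tested with such a separation was not determined, so this is a description only. In bulk RNA, fewer cells that express a gene and less of its RNA per cell cannot be told apart.

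In the kidney, 2 of the 4 tested members were lower in KFs, where 7.99% of all genes were lower and 14.7% higher. Beside *Hoxc13* this was *Hoxc12*, which went from 11, 18 and 9 counts in KFc to 1, 0 and 0 counts in KFs. It was at least 3.96-fold lower (edgeR, adjusted p = 9.91e-05), and the call held without KFs replicate 3 (adjusted p = 3.22e-04; over all alternatives that could test it, adjusted p ranged from 5.19e-05 to 5.66e-04). In the heart, *Hoxc13* was the 1 member lower in HFs, where 9.33% of genes were lower and 18.3% higher, and the other 3 were at or under the floor in both heart groups.

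In tail and kidney most other *Hox* genes did not pass the test. Among 30 other *Hox* genes tested, 5 were higher in TFs than in TFc, 0 in KFs than in KFc and 14 in HFs than in HFc. Over all genes tested these shares were 11.0%, 14.7% and 18.3%. In the heart, *Hoxa4*, *Hoxa6*, *Hoxa9*, *Hoxb8*, *Hoxc8* and *Hoxc10* were at or under the floor in HFc, with means of 0.236 to 0.728 CPM in HFs. Of the 10 genes of groups 9 to 11, edgeR called 0 lower in each organ by this rule, with 2, 3 and 0 lower at an unadjusted p under 0.05 in tail, kidney and heart, and DESeq2 called 0, 1 (*Hoxd10*) and 0. At adjusted p alone *Hoxb9* was lower in TFs (-0.75 ± 0.28, edgeR, adjusted p = 0.0432) and *Hoxc9* and *Hoxc10* in KFs (-0.61 ± 0.18 and -0.81 ± 0.29, edgeR, adjusted p = 0.00962 and 0.0290). The median log2 fold change in the tail was -1.39 over the 4 members, -0.38 over groups 9 to 11, 0.33 over groups 6 to 8, 0.07 over groups 1 to 5 and 0 over all genes tested. Of the 5 *Hox* genes that were higher in TFs, 4 were in the d cluster (*Hoxd3*, *Hoxd8*, *Hoxd9* and *Hoxd11*) and the other was *Hoxa5*. In TFc *Hoxd3*, *Hoxd9* and *Hoxd11* were at or under the floor, and in TFs they were at least 3.76-, 1.90- and 3.66-fold higher.

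The next genes toward the 3′ end of the a and c clusters did not pass the test in the tail, and that of the d cluster was higher. *Hoxc11* was at 7.57, 5.69 and 9.82 CPM in TFc and 5.46, 3.86 and 5.30 CPM in TFs (-0.66 ± 0.39, edgeR, adjusted p = 0.200), and *Hoxa11* had a log2 fold change of -0.45 ± 0.28 (edgeR, adjusted p = 0.230). *Hoxd11* went from 0, 1 and 0 counts to 10, 8 and 8 counts, at least 3.66-fold higher (edgeR, adjusted p = 0.00647). In KFs *Hoxc11* was at 1.13, 1.54 and 0.401 CPM against 1.38, 1.29 and 1.06 CPM in KFc, while *Hoxc13* on its 5′ side was lower in each KFs library than in any KFc library. The plot of fold changes shows *Hoxc13* and *Hoxc12* at the far left in the tail and *Hoxc13* in the kidney.

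**Figure D3:**
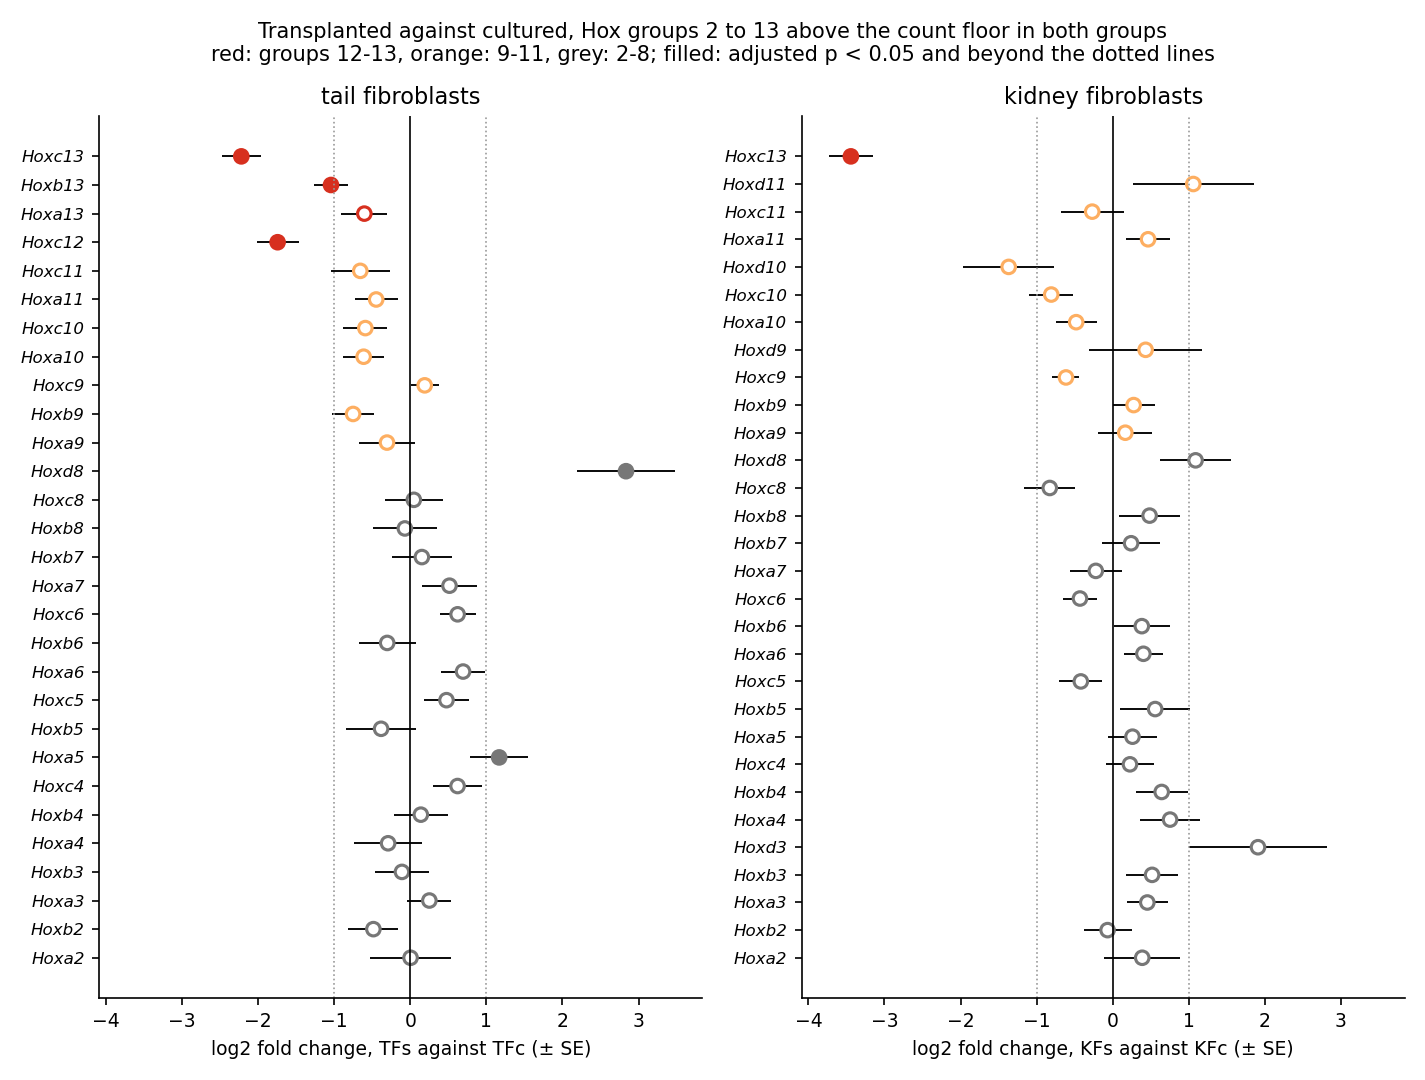
Log2 fold change of transplanted against cultured cells with its SE (horizontal axis) for *Hox* genes of paralog groups 2 to 13 above the floor in both groups (vertical axis, ordered by paralog group and coloured red for groups 12 and 13, orange for 9 to 11 and grey for 2 to 8), tail on the left and kidney on the right; filled points pass adjusted p under 0.05 and lie beyond the dotted lines at -1 and 1. *Hoxc13* has the lowest value in both panels (-2.22 and -3.44), and *Hoxa13* (-0.60) is the 1 open red point.

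Ratios within single libraries, which do not depend on scaling between libraries, describe how far the members fell relative to each other. The log2 ratio of *Hoxc13* to *Hoxa13*, per kb of exon, was 2.05, 1.62 and 1.73 in TFc and 0.34, 0.06 and 0.18 in TFs. That of *Hoxc12* to *Hoxa13* was 2.44, 2.06 and 1.89 in TFc and 1.04, 0.75 and 1.16 in TFs. That of *Hoxb13* to *Hoxa13* was 2.89, 2.60 and 2.53 against 2.40, 2.02 and 2.29. In these 3 ratios the groups did not overlap, with a mean difference of -1.61 for *Hoxc13*, -1.14 for *Hoxc12* and -0.44 for *Hoxb13*. The ratio of *Hoxc13* to *Hoxc11* in its own cluster moved by -1.58 in the tail and by -2.97 in the kidney (2.67, 2.96 and 3.33 in KFc, -0.23, -0.74 and 1.04 in KFs, the last in replicate 3), whereas that of *Hoxa13* to *Hoxa11* moved by -0.19 with overlapping groups. The tail ratio of *Hoxb13* to *Hoxb9*, the next gene of its cluster, moved by -0.29, also with overlapping groups. Of 12 ratios computed, 10 had groups that did not overlap and a two-sided exact permutation p of 0.10, which is the smallest that 3 against 3 libraries can give and cannot pass the threshold (0.12 after Benjamini-Hochberg adjustment over the 12).

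**Figure D4:**
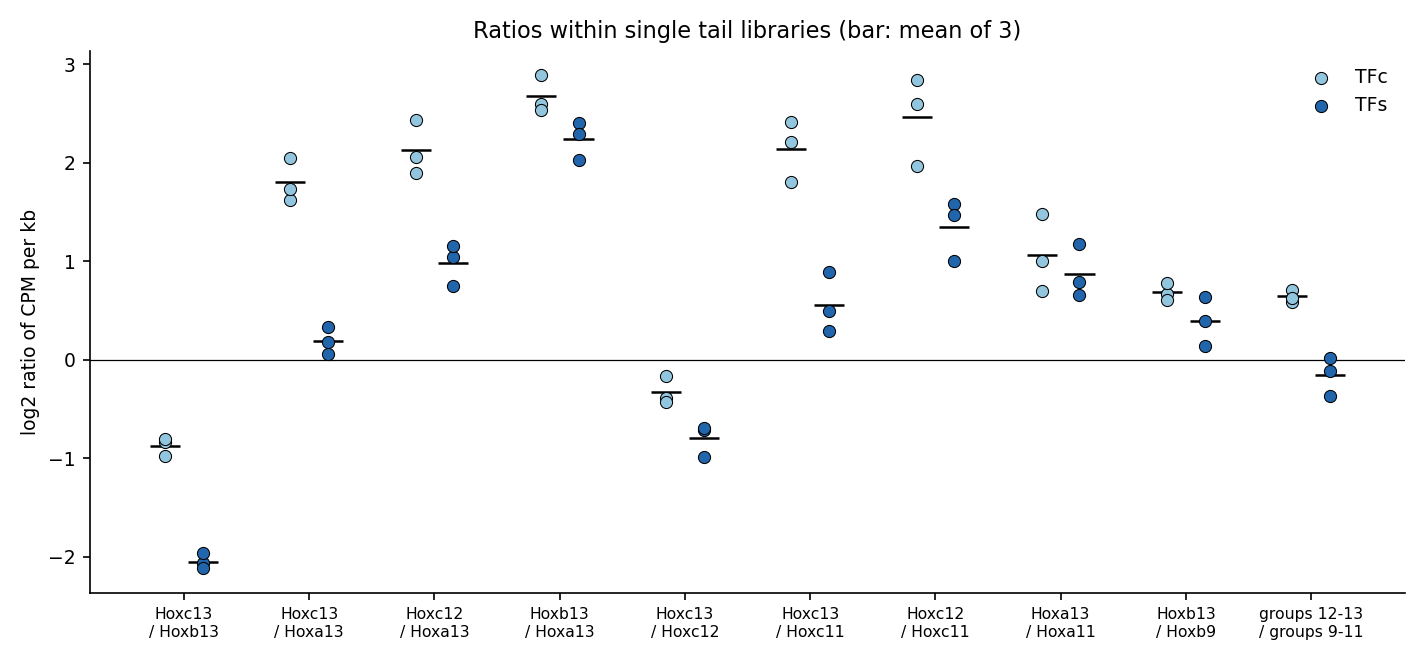
Log2 ratio of CPM per kb of 2 genes or gene sums within each tail library (vertical axis) for 10 ratios (horizontal axis), TFc in light blue and TFs in dark blue, bars at the means of 3. Ratios with *Hoxc13* or *Hoxc12* above *Hoxa13* or *Hoxc11* are lower in every TFs library than in any TFc library, while *Hoxa13* to *Hoxa11* and *Hoxb13* to *Hoxb9* overlap.

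The members' part in the whole *Hox* signal changed accordingly. Of the summed level per kb of the 38 *Hox* genes, groups 12 and 13 made up 48.3, 45.8 and 45.5% in TFc and 25.9, 28.4 and 29.9% in TFs. Groups 9 to 11 made up 29.8 ± 0.627% and 31.3 ± 2.06% (SD, n = 3), groups 6 to 8 13.9 ± 0.696% and 24.8 ± 0.904%, and groups 1 to 5 9.74 ± 0.782% and 15.9 ± 1.03%. The summed level of groups 12 and 13 itself was 71.6 CPM per kb in TFc and 27.3 in TFs, while that of groups 1 to 5 was 15.0 and 15.4. In HFc the single gene *Hoxc13* gave groups 12 and 13 a share of 20.0, 19.3 and 20.0%, because the heart cultures had little *Hox* RNA in all, and in HFs the share was 0, 1.10 and 0.209%. Within the 4 tail members the share of *Hoxb13* went from 41.8 ± 0.609% to 53.3 ± 1.44% and that of *Hoxc13* from 22.9 ± 1.26% to 12.9 ± 0.616%.

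**Figure D5:**
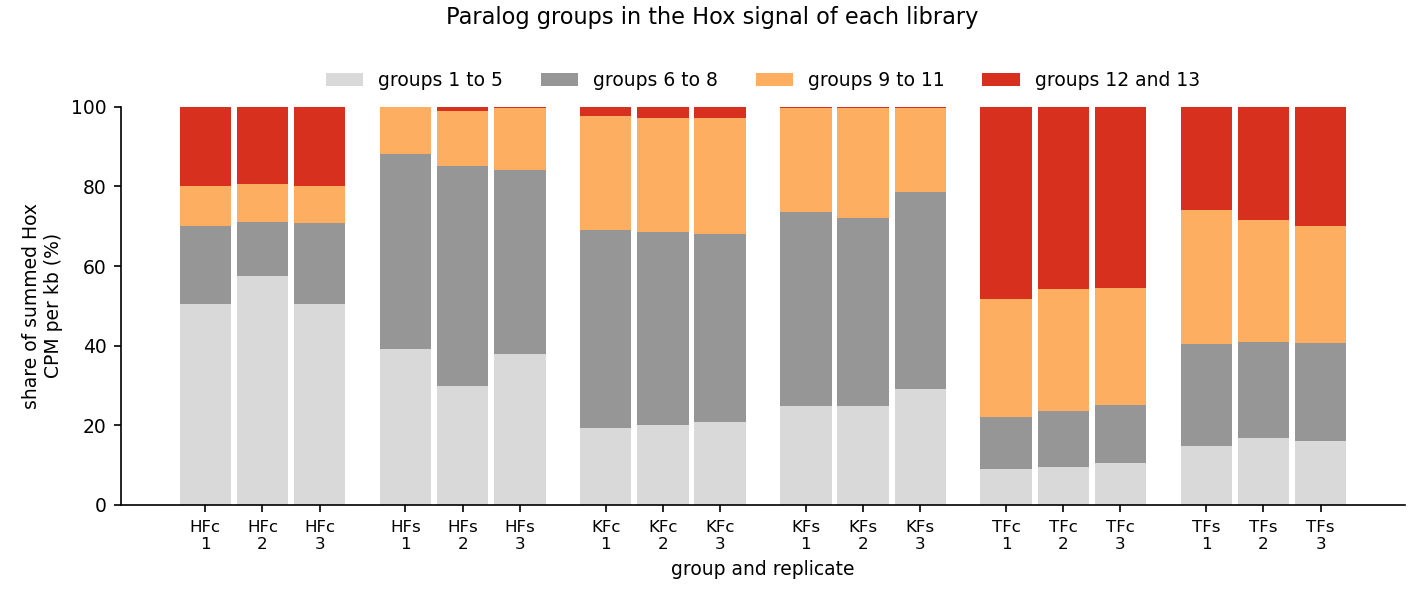
Share of each set of paralog groups in the summed CPM per kb of all 38 *Hox* genes (vertical axis, percent) in each of the 18 libraries (horizontal axis). The red part, groups 12 and 13, is 45.5 to 48.3% in TFc, 25.9 to 29.9% in TFs, and at most 2.76% in the kidney libraries.

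After transplantation the tail still differed from the other organs in all tested members, while the difference of *Hoxc12* between kidney and heart no longer passed, with 1 count in all in KFs and 0 in HFs (edgeR, adjusted p = 0.417). All 4 tested members were higher in TFs than in HFs, where 12.7% of all genes were higher, and than in KFs, where 13.8% were. *Hoxc13* was higher in TFs than in KFs by 2.97 ± 0.29 on the log2 scale (edgeR, adjusted p = 2.73e-06) and than in HFs by 6.10 ± 0.40 (edgeR, adjusted p = 3.85e-08). Without HFs replicate 2 the latter was a difference of at least 58.8-fold. *Hoxb13* was at least 285-fold higher than in KFs and at least 225-fold higher than in HFs, *Hoxa13* at least 67.9-fold and 53.8-fold, and *Hoxc12* at least 56.2-fold and 44.5-fold. *Hoxc13* was the 1 member that differed between KFs and HFs (3.13 ± 0.45, edgeR, adjusted p = 1.23e-04), where 19.0% of genes were higher in KFs, and this call was lost when those 2 groups were fitted alone (edgeR, adjusted p = 0.0945, the highest of its alternatives, the lowest being 1.59e-07). Without HFs replicate 2 it was at least 7.47-fold higher in KFs. Without KFs replicate 3 the difference of TFs from KFs was 2.91 and that of KFs from HFs 3.17, and both passed (edgeR, adjusted p = 1.19e-06 and 1.03e-04). Per kb, TFs kept *Hoxb13* (14.5 ± 1.24) and *Hoxc12* (6.14 ± 1.01) as the highest members, but *Hoxc13* (3.51 ± 0.193) and *Hoxa13* (3.09 ± 0.416) now overlapped.

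Whether the fall differed between organs was tested with interaction contrasts. *Hoxc13* fell less in tail than in heart cells, by 2.10 ± 0.52 on the log2 scale (edgeR, adjusted p = 0.00961), and was the 1 member called in a contrast in which 22.8% of genes were called in either direction. The call held without HFs replicate 2, where HFs was under the floor and the size cannot be given, and was lost without HFs replicate 3 (edgeR, adjusted p = 0.0552, the highest of 13 fits that left out 1 library, the lowest being 9.31e-05). Against the kidney, 11.1% of genes were called, among them *Hoxc13*, which fell less in tail by 1.22 ± 0.37 (edgeR, adjusted p = 0.0442), and *Hoxc12* (edgeR, adjusted p = 0.0290), whose size cannot be given because KFs was under the floor. Both of these calls lay close to the threshold. As each of the 12 tail and kidney libraries was left out, adjusted p by edgeR ranged from 0.0189 to 0.109 for *Hoxc13*, whose call was lost without any 1 of the KFc, TFc or TFs libraries and kept without any 1 of the KFs libraries. It ranged from 0.0121 to 0.0876 for *Hoxc12*, whose call was lost without KFc replicate 2, KFs replicate 2, TFc replicate 2, TFc replicate 3 or TFs replicate 3. The falls of *Hoxa13* and *Hoxb13* could not be compared between organs, because heart and kidney cells were at or under the floor. Between kidney and heart, where 26.2% of genes were called, the fall of *Hoxc13* did not differ past the threshold (0.88 ± 0.55, edgeR, adjusted p = 0.264). It passed without HFs replicate 2 (edgeR, adjusted p = 0.00857, the lowest of its alternatives, the highest being 0.744), where HFs was under the floor and the size cannot be given.

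The genes around the cluster ends were read next. *Hottip*, a long noncoding RNA transcribed from the opposite strand beyond *Hoxa13*, had 16, 23 and 10 counts in TFc and 9, 10 and 12 in TFs and 0 in the 12 heart and kidney libraries. *Hotair*, a noncoding RNA between *Hoxc12* and *Hoxc11*, was at 1.96, 2.79 and 2.98 CPM in TFc and 1.87, 1.95 and 2.38 CPM in TFs. Its fitted difference was -0.31 on the log2 scale ± 0.40 (edgeR, adjusted p = 0.568), while *Hoxc12* and *Hoxc13* on its 5′ side fell. Of the 8 neighbours found in the table, 5 passed the filter edgeR and DESeq2 each called 0 of them in the 3 transplant comparisons, with 1 at an unadjusted p under 0.05 in each. *Evx1* and *Evx2*, the homeobox genes beyond *Hoxa13* and *Hoxd13*, had at most 2 counts in any library.

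Other genes of the pathway were counted from lists. Of 9 cofactors that bind DNA with Hox proteins (the Pbx, Meis and Pknox families), 1 was higher in TFs (11.0% of all genes were), *Pknox2* (1.81 ± 0.21, edgeR, adjusted p = 9.39e-06). *Meis1* and *Meis2*, the usual partners of posterior Hox proteins, had log2 fold changes of 0.78 and 0.85, under the limit. Of 20 Polycomb and Trithorax genes, which keep *Hox* clusters silent or active, edgeR and DESeq2 each called 0 in the tail by this rule, although at an unadjusted p under 0.05 edgeR had 7 higher and 3 lower. *Kmt2a*, a Trithorax-type methyltransferase, was at 226 ± 1.90 CPM in TFc and 301 ± 26.6 CPM in TFs (0.42 ± 0.13). Of 6 factors that act on posterior *Hox* genes in the embryo, *Gdf11* was the 1 tested, at 20.9 ± 1.18 CPM in TFc and 13.5 ± 1.07 CPM in TFs (-0.63 ± 0.20), and *Cdx2* and *Cdx4* had 0 counts throughout.

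Genes linked to group 13 factors in limb and gut did not move in 1 direction with them. Of 10, 9 were tested, and 5 were higher and 1 lower in TFs, where 11.0% of all genes were higher and 5.53% lower. The autotaxin gene *Enpp2* (5.19 ± 0.54, edgeR, adjusted p = 3.59e-06), the retinoic acid enzyme *Aldh1a2* (5.03 ± 0.54, edgeR, adjusted p = 4.51e-06) and *Bmp2* (3.13 ± 0.78, edgeR, adjusted p = 0.00508) were higher, and the ephrin receptor *Epha4* was lower, from 76.6 to 31.2 CPM (-1.29 ± 0.27, edgeR, adjusted p = 0.00142). *Aldh1a2* was in TFc at 1.60, 1.49 and 1.62 CPM, the lowest of the 6 groups, and in TFs at 70.7, 49.4 and 35.2 CPM. Of the 9 tested in this list, 3 were higher and 1 lower in KFs, against 14.7% and 7.99% of all genes. In HFs 3 were higher and 0 lower (edgeR and DESeq2, with 1 lower at an unadjusted p under 0.05), against 18.3% and 9.33%. Of 11 hair genes downstream of *Hoxc13*, the hair keratins and *Dsg4* had at most 2 counts in any library and only *Foxn1* was tested, with 0.300 CPM in TFc and 0 counts in TFs (edgeR, adjusted p = 0.0180). *Foxn1* was also called lower in KFs than in KFc but not in HFs than in HFc, and TFc against KFc was not called. The 11 genes together summed to 0.132 to 0.549 CPM in TFc and 0.332 to 0.634 CPM in KFc. Of 12 other factors of limb and skin position, 3 were lower in TFs, *Prrx2* (-1.36 ± 0.36), *Msx2* (-1.24 ± 0.37) and *Shox2* (-1.11 ± 0.42; edgeR, adjusted p = 0.00786, 0.0173 and 0.0470), while *Tbx4* was at 7.12, 7.26 and 8.02 CPM in TFc and 7.49, 7.95 and 8.48 CPM in TFs.

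Markers of other cell types moved with the transplant comparisons. Over all genes tested, 11.0% were higher in TFs, 14.7% in KFs and 18.3% in HFs, and 5.53%, 7.99% and 9.33% were lower. Of 8 proximal tubule markers, 8 were higher in TFs, 7 in KFs and 8 in HFs, and their summed level went from 14.0 to 16.4 CPM in TFc to 91.9 to 271 CPM in TFs and reached 951 CPM in HFs replicate 2. In the kidney the sum did not rise, at 95.7 to 102 CPM in KFc and 47.3 to 95.8 CPM in KFs. Since 7 of the 8 markers were called higher there, the sum does not show the change of single markers. *Slc34a1* was at 0 or near 0 in culture and at 54.3, 16.99 and 25.6 CPM in TFs. Of 5 leukocyte markers, 4 were lower in TFs, 4 in KFs and 0 in HFs (edgeR, also 0 at an unadjusted p under 0.05 and by DESeq2), with sums of 159 to 187 CPM in TFc and 32.2 to 38.4 CPM in TFs. Keratinocytes were looked for because they use *Hoxc13* in the hair follicle. Their 6 markers summed to 1.89 to 2.59 CPM in TFc and 3.32 to 6.48 CPM in TFs. *Krt1* had 0 counts in every library, *Krt5* 0 in every tail library and *Krt14* at most 1 there. Of the 3 that were tested, *Cdh1*, a cadherin of epithelia in general, was higher in TFs, with 0, 0 and 1 counts in TFc and 78, 20 and 56 in TFs (edgeR, adjusted p = 8.14e-04), *Krt10* and *Trp63* did not pass there (edgeR, adjusted p = 0.942 and 0.815), and 2 of the 3 were higher in HFs. Of endothelial markers 2 of 4 were higher in TFs, of chondrocyte markers 1 of 4 was lower, and of muscle markers 1 of 4 was tested and was higher. That muscle marker, *Des*, was also higher in HFs but lower in KFs. The part of these cells in the members' falls was not tested.

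The genes whose level followed each member most closely were named by Pearson correlation of log2(CPM + 1) over the 18 libraries, which share their grouping, so that the values are descriptions. *Hoxa13* and *Hoxb13* were each other's closest gene (r = 0.999), followed for both by *Zic4* (0.991 and 0.988) and *Wnt16* (0.988 and 0.987). *Zic4*, a zinc-finger factor, was at 2.81 CPM in TFc and 3.10 CPM in TFs and at most 0.0127 CPM on average elsewhere. *Hoxc12* was most like *Wnt16*, a Wnt ligand (0.987), *Hapln1*, which links hyaluronan to proteoglycans (0.983), and *Sbspon* (0.982). *Hoxc13* had other neighbours, the sialyltransferase gene *St3gal2* (0.970), the splicing factor gene *Prpf6* (0.970) and the kinase gene *Mapk13* (0.958), and its correlation with *Hoxa13* was 0.741. Apart from those of *Hoxc13*, of which 2 of 3 stayed, no gene stayed among the closest 3 of the same member by Spearman rank correlation.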

How the data were processed

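The 18 strand-specific libraries (6 groups of 3) had been made from total RNA and sequenced as single 75-base reads. For cells isolated from the kidney capsule the study's methods name a low-input kit (SMARTer Stranded Total RNA-Seq, Pico). They name no kit for the cultured controls, so that a shared kit could not be settled. The values deposited by the authors are expected counts per gene from RSEM, here whole numbers. The study's methods name GRCm38 with Bowtie2, the submitters' processing notes name mm9 with Bowtie, so that the build behind the counts could not be settled. Genes were matched by Ensembl ID to GENCODE M21 (GRCm38), which gave positions, exon lengths and sequences for 37607 of 38924 genes, *Hoxd4* was not analysed here, and the calls of 1 other *Hox* gene are not reported here.

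Groups and replicate numbers came from the labels. The members and gene lists were chosen with earlier results of these data known. Counts were filtered by filterByExpr, scaled by TMM and fitted in edgeR 4.0.16 (R 4.3.3) by quasi-likelihood with 1 mean per group over all 18 libraries, and p-values were adjusted by Benjamini-Hochberg over 16577 genes. Transplant comparisons were called at adjusted p under 0.05 and a log2 fold change beyond 1, other contrasts at adjusted p under 0.05. The biological coefficient of variation was 0.240. *Hoxd13* and *Hoxd12* did not pass the filter. Named genes were all members, the other *Hox* genes, those of the lists, and the 3 genes closest to each member in Pearson correlation of log2(CPM + 1). Single ratios were compared by exact permutation (scipy 1.17.1). The script was tested on simulated counts. Alternatives were other size factors, filters, a replicate block, only the groups compared, each library left out, and DESeq2 1.42.0. The low-input kit amplifies little RNA by PCR without molecular identifiers, so that counts made with it are not independent molecules.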

Additional observations from a re-analysis of the deposited data

Results flagged for a closer look

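The change of *Hoxc13* on transplantation differed between tail and heart cells by 2.10 on the log2 scale and between tail and kidney cells by 1.22, and that of *Hoxc12* between tail and kidney cells by a fitted 2.95, each flagged because an interaction test of the difference itself passed (edgeR, adjusted p = 0.00961, 0.0442 and 0.0290). In all 3 the fall was the smaller one in tail. The first was lost without HFs replicate 3 (adjusted p = 0.0552) and held without HFs replicate 2, where HFs was under the floor of 3 counts and no size can be given. The second was lost in 9 of 12 fits that left out 1 library, and the third in 5 of 12. The fitted value of *Hoxc12* is no measure of size, since KFs had 1, 0 and 0 counts. Groups of 3 libraries were not tested for outlying samples.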

How the results depend on the processing

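Of 439 values of the members' log2 fold changes under the alternatives, over 30 results and 26 settings, 419 kept their direction and their side of the threshold, 19 kept the direction and lost the call, 1 gained it and 0 reversed. Without the fold change limit, 6433 genes were called in TFs against TFc (2743 with it), 8091 in KFs against KFc (3754) and 9353 in HFs against HFc (4585). With only the groups compared in the fit, 7508 genes were called in KFc against HFc (4833 with all groups), 1137 in TFs against KFs (4819) and 883 in KFs against HFs (5504), and the members called went from 2 to 1 in KFs against KFc and in KFc against HFc, where *Hoxc12* no longer passed the filter, and from 1 to 0 in KFs against HFs. Leaving out 1 library gave 3183 to 5944 genes in TFs against KFs and 1198 to 3619 in the response of tail against kidney (1835 with all), and 0 to 1 members in the response of tail against heart, 0 to 2 in tail against kidney and 0 to 1 in kidney against heart. In the response of tail against kidney, 1 member was called on library size alone and 0 with the replicate block, and in kidney against heart DESeq2 called 1 member. That member was not *Hoxc13* but was at or under the floor in both heart groups, so that no difference in response can be read from it. The cause of these shifts was not tested. Replicate numbers did not pair the libraries: in each transplant comparison 0 of 3 same-numbered pairs had deviations correlated over 0.1, and besides that response (*Hoxc13* adjusted p = 0.0673, *Hoxc12* 0.0544) the replicate block changed no call of a member. Scaling by library size alone moved the median of all genes by 0.25 in TFs against HFs, and the members kept their directions under each scaling. Depth limits *Hoxc12* outside the tail and *Hoxc13* in HFs, where 8 counts in all were found.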
